A study of Mus musculus with 29 samples.

Results

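Long type 5 domains are the longest stretches given the label 5 in a genome segmentation of H2Aub, histone H2A carrying a single ubiquitin at lysine 119, in mouse oocytes and early embryos. The deposited segmentation gives each stretch of mm10 chromosomes 1 to 19 a type from 1 to 5. Touching segments of 1 type were joined, which changed none, and type 5 segments of at least 300 kb were kept. This left 442 domains of 31563 segments in all, or of 3775 segments of type 5 (11.7%). The domains were chosen by type and length, so both are descriptions. The types carry no key, no H2Aub level is attached to any of them, and the label could be checked only as a number.

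H2Aub is laid down by Polycomb repressive complex 1, and the partner mark H3K27me3 by Polycomb repressive complex 2, of which Eed is a core subunit. PR-DUB is the enzyme complex that takes the ubiquitin off again. In many mammalian cells both Polycomb complexes gather at unmethylated CpG islands, the CpG-rich stretches found at many gene starts, while oocytes and early embryos are known to carry broad Polycomb domains outside such islands as well.

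The series profiled 24 H2Aub and 5 H3K27me3 libraries in 16 groups by CUT&RUN, in which an antibody-bound nuclease cuts out the DNA around a mark. Eed maternal knockout samples carried the label Gdf9-Eed (fl/fl), a deletion driven in the growing oocyte, on a B6/129 mixed background, with 2 H2Aub libraries each from germinal vesicle (GV) oocytes, 4-cell embryos and morulae, the embryos sired by wild-type PWK males. PR-DUB (OE) 4-cell embryos from B6/DBA x PWK crosses gave 1 H2Aub and 2 H3K27me3 libraries, and PR-DUB (CTR) embryos of the same cross gave as many. Libraries titled wild type, from 1 to 3 per stage, covered H2Aub in oocytes at the GV (2) and metaphase II stages (2), in zygotes (2), in embryos with 2 (3) or 4 cells (2), in morulae (2), in the inner cell mass of blastocysts (1) and in the epiblast at E6.5 (2), and H3K27me3 in GV oocytes (1). Those from GV oocytes for H2Aub, 2 of the 3 from 2-cell embryos, and those from 4-cell embryos and morulae carried the floxed Eed allele without the Gdf9 driver on the B6/129 mixed background, while the others were B6/DBA or B6/DBA x PWK with no Eed allele named. The segmentation holds no value for any library, so its depth is unknown, no group can be compared with another, and it is not stated which libraries shaped it. Everything below describes 1 segmentation. No test was made, since segments and genes of 1 segmentation are not replicates, and intervals are exact 95% intervals for counting error only.

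The sequences around gene starts give a first view of the domains. Each line below holds the 250 bases before a start, 5′ to 3′ on the gene's strand, from RefSeq promoters of GRCm38.p6, and capitals mark each CpG. For a gene with several listed starts in the domain or gap, the start with the highest ratio of observed to expected CpG was taken. The first pair has the highest ratios within the 10 longest domains. They belong to Epha5, an ephrin receptor of axon guidance (chr5:84417383-84417632, minus strand), and Ncam2, a neural cell adhesion gene (chr16:81200447-81200696, plus strand).
Epha5: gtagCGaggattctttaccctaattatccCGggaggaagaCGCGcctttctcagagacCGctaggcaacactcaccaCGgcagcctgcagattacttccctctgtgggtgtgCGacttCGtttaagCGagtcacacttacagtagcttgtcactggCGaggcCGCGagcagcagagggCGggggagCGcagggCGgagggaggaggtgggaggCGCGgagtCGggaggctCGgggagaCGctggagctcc
Ncam2: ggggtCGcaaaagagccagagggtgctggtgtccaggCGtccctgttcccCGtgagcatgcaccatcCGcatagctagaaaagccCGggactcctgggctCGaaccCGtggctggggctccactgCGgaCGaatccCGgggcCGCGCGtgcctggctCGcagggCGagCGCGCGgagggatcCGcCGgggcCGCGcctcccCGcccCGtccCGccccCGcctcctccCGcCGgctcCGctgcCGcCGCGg
The next pair has the lowest ratios within the same 10 domains, from Csnka2ip (chr16:64602332-64602581, minus strand) and Zpld1, a zona pellucida-like domain gene (chr16:55283238-55283487, minus strand).
Csnka2ip: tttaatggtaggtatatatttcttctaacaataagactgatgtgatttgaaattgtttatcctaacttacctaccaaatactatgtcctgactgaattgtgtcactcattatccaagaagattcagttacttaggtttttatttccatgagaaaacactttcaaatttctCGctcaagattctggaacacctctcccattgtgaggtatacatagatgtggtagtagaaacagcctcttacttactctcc
Zpld1: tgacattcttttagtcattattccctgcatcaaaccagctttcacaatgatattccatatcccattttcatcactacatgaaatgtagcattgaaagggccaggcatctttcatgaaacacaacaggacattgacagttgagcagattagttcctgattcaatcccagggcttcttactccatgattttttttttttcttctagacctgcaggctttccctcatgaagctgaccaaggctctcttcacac
The last 5 start in short gaps between neighbouring long domains, where other types interrupt type 5. Of 14 genes with a start in a gap of types 3 or 4, they have the 4 highest ratios and, in Slitrk3, the lowest. They are Adgrl3, a latrophilin adhesion receptor (chr5:81020321-81020570, plus strand), Lrfn5, a synaptic adhesion gene (chr12:61522917-61523166, plus strand), Slitrk5, another synaptic organiser (chr14:111675777-111676026, plus strand), Pcdh17, a protocadherin (chr14:84443313-84443562, plus strand), and Slitrk3, a further synaptic organiser (chr3:73057067-73057316, minus strand).
Adgrl3: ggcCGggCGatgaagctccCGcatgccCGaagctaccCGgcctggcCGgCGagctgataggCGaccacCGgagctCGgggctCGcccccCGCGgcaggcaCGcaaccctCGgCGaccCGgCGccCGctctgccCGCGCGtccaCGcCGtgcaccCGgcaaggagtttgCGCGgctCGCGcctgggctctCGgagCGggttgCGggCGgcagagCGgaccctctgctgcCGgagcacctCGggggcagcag
Lrfn5: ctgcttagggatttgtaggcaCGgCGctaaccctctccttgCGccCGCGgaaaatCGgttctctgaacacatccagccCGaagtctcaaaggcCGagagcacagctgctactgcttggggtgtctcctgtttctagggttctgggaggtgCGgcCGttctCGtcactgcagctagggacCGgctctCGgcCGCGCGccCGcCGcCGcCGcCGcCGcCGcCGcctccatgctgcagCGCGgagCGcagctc
Slitrk5: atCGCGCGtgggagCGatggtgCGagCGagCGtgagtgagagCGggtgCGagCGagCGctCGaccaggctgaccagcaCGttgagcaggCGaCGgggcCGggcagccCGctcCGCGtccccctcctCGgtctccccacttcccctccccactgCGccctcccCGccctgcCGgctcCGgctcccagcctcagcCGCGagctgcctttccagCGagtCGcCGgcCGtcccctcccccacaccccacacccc
Pcdh17: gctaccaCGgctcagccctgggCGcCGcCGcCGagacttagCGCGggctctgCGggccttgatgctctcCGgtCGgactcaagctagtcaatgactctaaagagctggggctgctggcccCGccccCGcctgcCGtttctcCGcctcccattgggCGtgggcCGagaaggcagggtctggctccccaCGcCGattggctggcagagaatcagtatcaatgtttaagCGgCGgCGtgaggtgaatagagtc
Slitrk3: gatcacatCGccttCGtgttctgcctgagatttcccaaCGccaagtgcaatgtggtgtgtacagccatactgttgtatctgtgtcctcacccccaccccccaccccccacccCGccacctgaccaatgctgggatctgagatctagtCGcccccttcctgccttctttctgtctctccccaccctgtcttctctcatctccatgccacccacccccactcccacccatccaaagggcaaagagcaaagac
Over the 300 bases that end 50 bases past the start, the ratio of observed to expected CpG was 1.00 for Epha5 and 0.958 for Ncam2, with 30 CpGs at Epha5 and 41 at Ncam2. It was 0.0938 for Csnka2ip, with 1 CpG, and 0 for Zpld1, with none. In the gaps it was 0.940 for Adgrl3, 0.937 for Lrfn5, 0.868 for Slitrk5, 0.822 for Pcdh17 and 0.413 for Slitrk3. The Epha5 and Ncam2 starts lay 1563 kb and 2556 kb from the nearest border of their domains, so CpG-rich starts also occurred deep inside type 5.

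The 442 domains covered 375 Mb, 15.2% of the 2463 Mb segmented and 63.5% of all type 5 length. The other 3333 type 5 segments covered 215 Mb with a median length of 40 kb. Domain length had a lower quartile of 395 kb, a median of 545 kb and an upper quartile of 920 kb, up to 11.2 Mb. Just inside the minimum stood 6 domains of 300 kb and 6 of 305 kb, and just outside it 11 type 5 segments of 295 kb and 8 of 290 kb. There were 191 domains of 300 kb to under 500 kb (73.5 Mb), 159 of 500 kb to under 1 Mb (112 Mb) and 92 of 1 Mb or more (190.0 Mb). The 90 longest held 50% of the length, and 2 domains each enclosed a shorter segment of another type.

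The chromosomes differed widely in how much of them the domains took. The share of the segmented length averaged 15.2% ± 7.05 (SD, n = 19 chromosomes). Chromosome 16 held 34.7% in 17 domains, and chromosome 14 held 24.7% in 14 domains with the longest median, 1305 kb. Chromosome 11 stood at the other end with 3.10% in 7 domains. The most domains lay on chromosome 3 (45), chromosome 1 (42) and chromosome 2 (37).

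**Figure D1:**
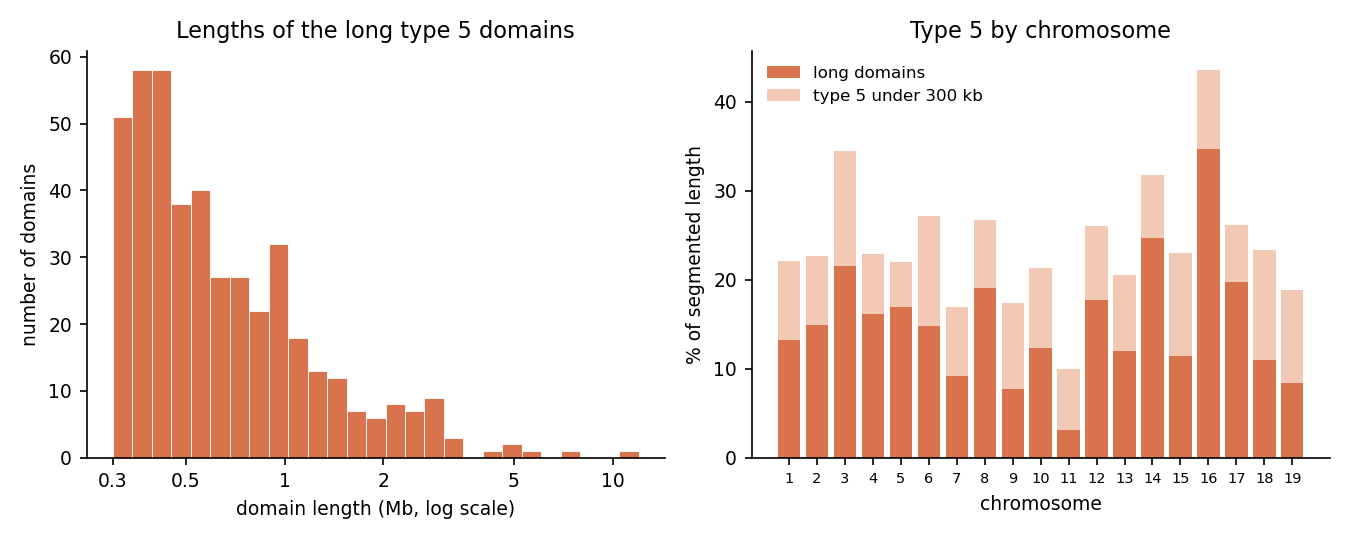
Left: number of long type 5 domains by length in Mb (log scale). Right: share of each chromosome's segmented length in long domains (dark) and in type 5 segments under 300 kb (light). Most domains were shorter than 1 Mb, and the share in long domains ran up to 34.7% on chromosome 16 from 3.10% on chromosome 11.

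The 10 longest domains held 13.8% of the long-domain length and few genes. The longest, chr14:87585001-98790000, spanned 11.2 Mb with 5 protein-coding genes. These were the protocadherin Pcdh9 (879 kb), the neuronal kelch gene Klhl1, the transcription factor Dach1, Pcdh20 and Spertl. On chromosome 16, 7.38 Mb (65280001 to 72655000) held Cadm2 (966 kb), an adhesion gene of the synapse, the glycogen branching enzyme Gbe1, the cofactor gene Vgll3, Chmp2b of the membrane-sorting machinery and the pituitary factor Pou1f1. A further 5.88 Mb of that chromosome (78645001 to 84520000) held only Ncam2, the intestinal protease gene Tmprss15 and Chodl. On chromosome 5, 4.96 Mb (81025001 to 85980000) held Epha5, Tecrl, Gm42163 and most of Adgrl3. Another 2 domains of chromosome 16 held Alcam, a cell adhesion gene, with the ubiquitin ligase Cblb and Zpld1 (4.63 Mb, 50850001 to 55475000), and the ephrin receptor Epha3 with the serotonin receptor Htr1f and the anticoagulant Pros1 (4.51 Mb, 60750001 to 65260000).

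The remaining 4 of these 10 held at most 2 protein-coding genes each. The 3.51 Mb domain of chromosome 12 (92185001 to 95690000) held only Gm40892, the 3.44 Mb domain of chromosome 4 (66405001 to 69840000) Brinp1 and the innate immune receptor Tlr4, and the 3.34 Mb domain of chromosome 14 (106505001 to 109845000) the synaptic gene Slitrk1. No protein-coding gene lay in the 3.04 Mb domain of chromosome 17 (59330001 to 62370000), the longest without one. It was followed by 2.95 Mb of chromosome 8 (99420001 to 102365000) and 2.92 Mb of chromosome 14 (81520001 to 84440000).

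Protein-coding genes were sparse in the domains as a whole. Of 20560 protein-coding genes, 877 (4.27%) had most of their body in long domains, which made up 15.2% of the segmented bins. Of these, 799 (91.1%) lay wholly inside. Density was 2.34 genes per Mb in long domains (interval 2.19 to 2.50), against 4.77 in shorter type 5 segments (4.48 to 5.07) and 8.35 over the whole segmentation. It was 5.37 in type 1 segments of at least 300 kb, 9.56 in type 1 as a whole, 3.75 in type 2, 14.6 in type 3 and 8.45 in type 4. For types 1 to 4 by chromosome, every gene not placed in long or shorter type 5 was counted, also genes with no majority in any type. Chromosome by chromosome, density averaged 2.37 ± 2.18 genes per Mb in long domains, against 5.035 ± 2.398 in shorter type 5 segments and 9.99 ± 2.42 in types 1 to 4 (SD, n = 19). It was lower in long domains than in types 1 to 4 on 19 of 19 chromosomes, and lower than in shorter type 5 segments on 18, chromosome 2 being the exception at 9.03 against 4.42. The first 3 Mb of each chromosome, where no gene was counted, held no long domain but stayed in the lengths. Densities over the whole segmentation and in the types that cover these bases are therefore too low, by an amount not worked out. On chromosome 1 these bases were a type 1 segment of 3000 kb.

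**Figure D2:**
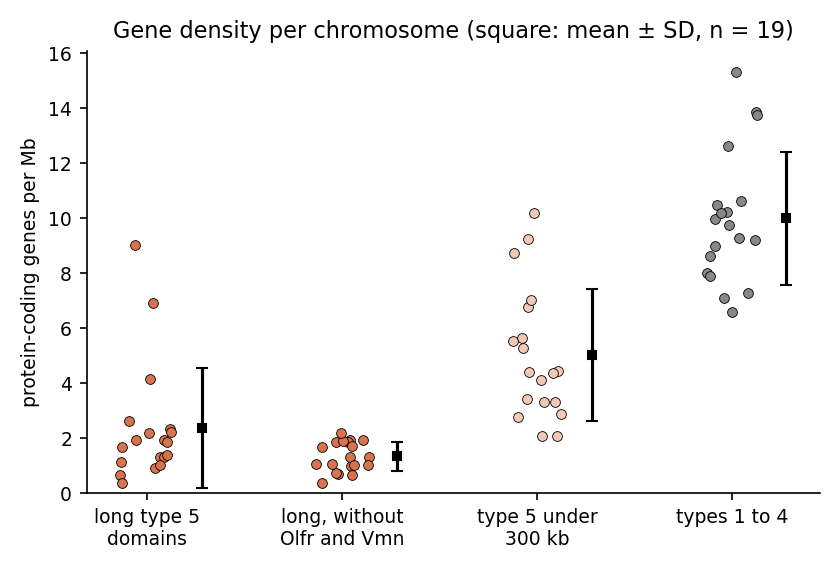
Protein-coding genes per Mb on each of 19 chromosomes (points) with mean and SD (squares and bars), in long type 5 domains with all genes and without Olfr and Vmn genes, in type 5 segments under 300 kb and in types 1 to 4. Types 1 to 4 count every gene not placed in long or shorter type 5. The 3 highest long-domain points, chromosomes 2, 7 and 9, come down to 1.06, 0.746 and 1.04 without the receptor genes.

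Sensory receptor genes made up much of the gene count of the domains. Of the 877 genes, 359 (40.9%) were olfactory receptors, which detect odours, and 31 (3.53%) vomeronasal receptors, which detect pheromones. Without both families the density was 1.30 genes per Mb in long domains, against 3.37 in shorter type 5 segments and 7.76 over the whole segmentation, and it averaged 1.33 ± 0.541 over the 19 chromosomes. Only 13 domains held the 359 olfactory receptors. The 5 domains with the most genes held 285 of the 877 (32.5%). On chromosome 2, 2.62 Mb (85495001 to 88110000) carried 129 genes, of which 126 were olfactory receptors. Nearby domains of 920 kb and 930 kb carried 40 and 39 genes, all of that family, with a type 1 gap of 20 kb between them (89215001 to 89235000). On chromosome 9, 885 kb (38660001 to 39545000) carried 30 olfactory receptors and Vwa5a. On chromosome 7, 670 kb (103435001 to 104105000) carried 41 olfactory receptors and the 5 beta-globin genes Hbb-y, Hbb-bh1, Hbb-bh2, Hbb-bs and Hbb-bt, which encode embryonic and adult haemoglobin chains.

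No protein-coding gene lay mostly inside 227 of the 442 domains (51.4%, interval 46.6 to 56.1%), which together spanned 149 Mb. The share was 60.2% among domains of 300 kb to under 500 kb, 54.7% among those of 500 kb to under 1 Mb and 27.2% among those of 1 Mb or more. A longer domain has more room to hold a gene, and these shares were not adjusted for length. In 28 domains, all under 1 Mb, no annotated gene of any kind lay mostly inside.

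Genes in the domains ranged widely in length. The median gene length was 3.57 kb in long domains, against 17.6 kb over all protein-coding genes. Without receptors it was 22.2 kb in long domains, against 19.6 kb. Very long genes were present too, 39 of 877 (4.45%) being over 500 kb, against 216 of 20560 (1.05%), so that long domains held 18.1% of all such genes. A domain can hold only a gene that its length allows, and this limit was not removed. The longest wholly inside were the axon guidance receptor Robo2 (1555 kb), the synaptic adhesion gene Lrrc4c (1314 kb), the sarcoglycan Sgcz (1144 kb), Cadm2 (966 kb), Pcdh9 (879 kb) and the pyrimidine-degrading enzyme Dpyd (871 kb). Marchf1, a ubiquitin ligase (855 kb), Mgat4c (710 kb), B3galt1 (557 kb), Iqcm (536 kb), the potassium channel Kcnh7 (491 kb), the actin regulator Diaph3 (486 kb), Dok6 (477 kb), Ppfia2 (464 kb) and Ncam2 (424 kb) followed. Other giants were cut by domain borders. Ptprd, a synaptic phosphatase receptor of 2271 kb, lay 93.6% in long domains, and Cntn5, a contactin, 72.4%. Lrp1b lay 49.7%, Lsamp 43.3%, Gpc5 42.2%, Agbl4 34.9%, Dlg2 28.4%, Dpp10 27.7% and Cntnap2 17.6% in long domains.

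The GABA-A and glycine receptors, which carry fast inhibition in the nervous system, had a larger share of genes in long domains than all protein-coding genes, at 4.27%. Of 19 GABA-A and glycine receptor genes, 10 (52.6%, interval 28.9 to 75.6%) lay mostly in long domains. They sat in 5 domains and so are not 10 separate placements. A 1.53 Mb domain of chromosome 5 (70595001 to 72125000) held Gabra2, Gabra4, Gabrb1 and Gabrg1, and on chromosome 11 a 585 kb domain (42075001 to 42660000) held Gabra6 and Gabrb2. Glra3 and Glrb, which form glycine receptors, lay in domains of 415 and 470 kb. The Glrb domain also held Gria2, the AMPA receptor subunit, and of 25 glutamate receptor genes 4 (16.0%) were in long domains, with Grik2, Grm5 and Grm7.

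Most lists of neuronal adhesion and guidance genes had a larger share in long domains than the 4.27% of all genes. Among them, 4 of 10 non-clustered protocadherins (Pcdh7, Pcdh9, Pcdh17 and Pcdh20) and 5 of 23 classical and type II cadherins (Cdh7, Cdh8, Cdh10, Cdh11 and Cdh20) lay mostly in long domains. So did 7 of 33 leucine-rich repeat synaptic organisers, namely Flrt2, Lrfn5, Lrrc4c, Lrrtm1, Lrrtm4, Slitrk1 and Slitrk6. Of the guidance receptors and their ligands in the Robo, Slit, Dcc, Unc5 and netrin families, 4 of 18 did (Dcc, Ntng1, Robo1 and Robo2), and of Eph receptors and ephrins 3 of 21 (Epha3, Epha5 and Epha7). Contactins and Cntnap genes together gave 2 of 13 (Cntn5 and Cntnap5b), and Cadm, Ncam and IgLON genes 2 of 11 (Cadm2 and Ncam2). Semaphorins and plexins gave 1 of 27 (Sema3a), and potassium channels 4 of 79. The intervals of the contactins (1.92 to 45.4%), of Eph receptors and ephrins (3.05 to 36.3%), of Cadm, Ncam and IgLON genes (2.28 to 51.8%) and of potassium channels (1.40 to 12.5%) included 4.27%. Several of these lists hold long genes, and they were written with earlier results of these data known.

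Clusters of short tandem genes lay in long domains and also in shorter type 5 segments. Olfactory receptors lay mostly in long domains in 359 of 1103 cases (32.5%), vomeronasal receptors in 31 of 351 (8.83%), bitter and other taste receptors in 10 of 38 (26.3%) and keratin-associated proteins, which build hair, in 18 of 56 (32.1%). All 10 taste receptors shared a 405 kb domain of chromosome 6 (132830001 to 133235000), and all 18 keratin-associated genes a 555 kb domain of chromosome 16 (88570001 to 89125000). Of 60 C-type lectin and killer cell receptor genes 12 (20.0%) were in long domains. Clec14a aside, they shared a 365 kb domain of chromosome 6 (129565001 to 129930000), with Klrc1, Klrc2, Klrd1 and Klrk1, receptors of natural killer cells. In shorter type 5 segments, which cover less length, the shares were 23.1% of olfactory receptors, 13.4% of vomeronasal receptors, 42.1% of taste receptors, 32.1% of keratin-associated proteins and 15 of the 60 lectin and killer cell receptors. Of all 20560 protein-coding genes, 877 (4.27%) lay mostly in long domains and 1027 in shorter type 5 segments. Of these families, the olfactory receptors had a larger share in long domains, the keratin-associated proteins an equal one and the others a smaller one. These shares were not adjusted for the length covered, 375 Mb in long domains and 215 Mb in shorter segments. No member lay mostly in long domains among 91 serpin and secretoglobin genes, 42 beta-defensins, and 35 trace amine and Mas-related receptors. For serpins and secretoglobins this allows a share of up to 3.97%, below the 4.27% of all genes. Genes of a cluster can share a domain, so that interval is too narrow. The intervals of beta-defensins (up to 8.41%) and of trace amine and Mas-related receptors (up to 10.003%) included 4.27%. Those lists are too short to tell their share from that of all genes.

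Developmental regulators and housekeeping families had few or no members in the domains, and most of these lists are too short to tell their share from the 4.27% of all genes. None of 39 Hox genes and none of 31 Zic, Irx, Pax, Dlx and sine oculis-related homeobox genes lay mostly in long domains, which allows shares of up to 9.03% and 11.2%. Of 76 Sox, Fox and Pou factors 2 did, Foxp2 and Pou1f1, and of 49 Fgf, Wnt and Bmp ligands 1 did, Fgf14. Zinc finger proteins gave 2 of 415 (Zfp654 and Zfp804a; 0.482%, interval 0.0584 to 1.73%), the only one of these intervals below 4.27%. Cytosolic ribosomal proteins gave 1 of 76 (Rpl10l) and proteasome subunits 0 of 38.

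Promoters in the domains were mostly poor in CpG. A promoter was called CpG-rich when the ratio of observed to expected CpG was at least 0.6 and GC at least 50% over the 300 bases around any listed start. Sequences of chromosome 18 were not used. Of 855 genes placed mostly in long domains, 717 (83.9%) had a promoter in the RefSeq table, and 85 of these (11.9%, interval 9.58 to 14.4%) were CpG-rich, against 8210 of 16457 genes overall (49.9%). The median ratio was 0.179 in long domains, against 0.628 over all genes, and the median GC was 38.7% against 57.7%. None of the 329 receptor genes in long domains had a CpG-rich promoter, which allows up to 1.12%. Without receptors the share was 21.9% in long domains (85 of 388, interval 17.9 to 26.4%), against 28.5% in shorter type 5 segments (24.8 to 32.4%) and 54.0% over all genes. By domain length it was 18.03% at 300 kb to under 500 kb, 13.2% at 500 kb to under 1 Mb and 33.6% at 1 Mb or more. The shares by type counted receptors, as did the 11.9% of long domains. Genes of type 1 stood at 58.5%, of type 2 at 47.8% and of type 3 at 53.5%. Of type 4 genes only 77.2% had a listed promoter, under the 80% asked of each class, so they were not compared.

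A small set of long genes had the body in a domain and the start outside it. Of the 717 genes, 30 (4.18%) had every listed start outside long domains, and 16 of these 30 (53.3%, interval 34.3 to 71.7%) were CpG-rich, against 69 of the 687 others (10.04%, 7.90 to 12.5%). Their median length was 410 kb, against 2.22 kb. A gene counted in this set must cross a domain border, which favours long genes by construction. The CpG-rich shares compared here were not adjusted for gene length. Without receptors the CpG-rich share was 16 of 29 (55.2%, interval 35.7 to 73.6%), against 69 of 359 (19.2%, 15.3 to 23.7%), and the median length was 417 kb, against 16.4 kb. The first listed start lay in type 4 for 19 of the 30, in type 3 for 6, in a shorter type 5 segment for 3, and in types 1 and 2 for 1 each. The longest were Cntn5, the catenin Ctnna2, Astn2 of neuron migration, Robo1, Adgrl3 and the lipid phosphatase Inpp4b. Grik2, Sorcs1, Pcdh7, Trhde, Cdh8, Lrfn5, Flrt2 and Pcdh17 were also among them. Adgrl3, for example, had 99.3% of its 809 kb in long domains, and its first listed start in type 3.

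Type 1 was the usual neighbour of the domains, and type 4 the usual neighbour of shorter type 5 segments. Of the 884 borders of long domains, 478 (54.1%) touched type 1, 206 (23.3%, interval 20.6 to 26.2%) type 4, 152 (17.2%) type 2 and 48 (5.43%) type 3. Shorter type 5 segments touched type 1 at 25.8% of borders, type 4 at 51.1%, type 2 at 12.6% and type 3 at 10.5%, and all type 5 segments together touched type 4 at 47.8%. Type 1 neighbours of long domains had a median length of 60 kb, type 2 neighbours of 25 kb, and neighbours of types 3 and 4 of 15 kb each. Type 1 flanked 156 domains on both sides, and type 4 flanked 39 on both sides. The share of borders on type 4 was 20.9% for domains of 300 kb to under 500 kb, 20.8% for 500 kb to under 1 Mb and 32.6% for 1 Mb or more (interval 25.9 to 39.9%).

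**Figure D3:**
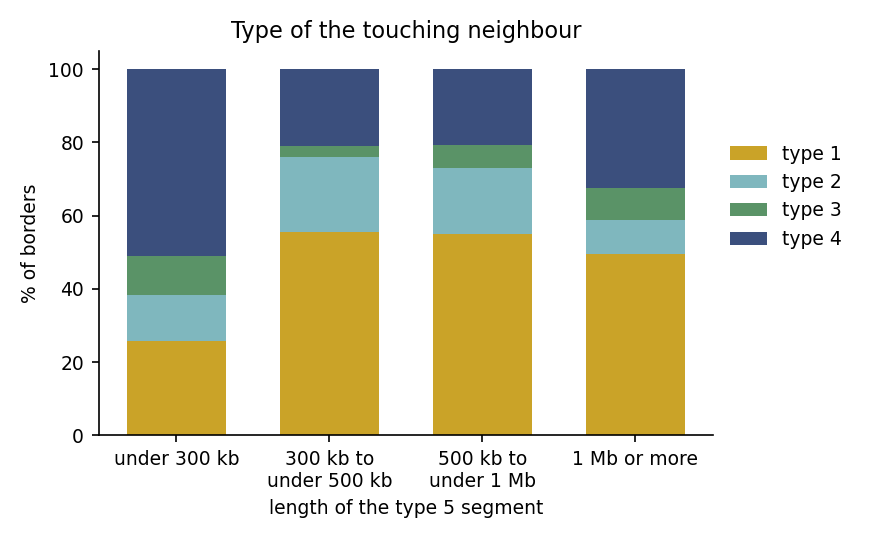
Type of the segment that touches a type 5 segment, as a share of borders, by length of the type 5 segment. Type 4 made up 51.1% of borders under 300 kb, 20.9% and 20.8% in the middle classes and 32.6% at 1 Mb or more.

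Gene starts with CpG-rich promoters differed in density across the border. In the first 25 kb inside the domains there were 9 such starts, 0.425 per Mb (interval 0.194 to 0.806), against 40 in the first 25 kb outside, 2.02 per Mb (1.44 to 2.75). Farther in, up to 150 kb, the density was 0.142 to 0.472 per Mb, and farther out, up to 150 kb, it was 0.787 to 1.32 per Mb. Of other starts there were 46 in the first 25 kb inside (2.17 per Mb, interval 1.59 to 2.89) and 70 in the first 25 kb outside (3.53 per Mb, 2.75 to 4.46). Where another long domain was near, the outside windows stopped midway to it. No density of CpG-rich starts over the whole segmentation was worked out, so these values describe a contrast across the border only. For scale, 8210 genes outside chromosome 18 had a CpG-rich promoter, and 2463 Mb were segmented with chromosome 18 included.

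**Figure D4:**
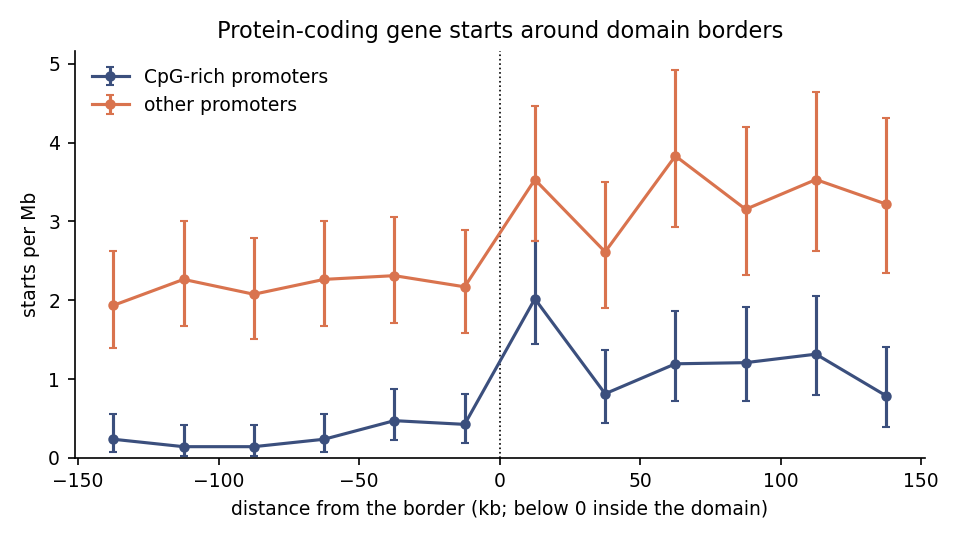
Protein-coding starts per Mb by distance from the borders of long domains (kb, below 0 inside), for CpG-rich and other promoters, with exact 95% Poisson intervals for counting error. CpG-rich starts stood at 0.425 per Mb in the last 25 kb inside and 2.02 per Mb in the first 25 kb outside. The density over the whole segmentation was not worked out.

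Neighbouring long domains were in places split by very short gaps, and the gaps fell into different kinds. Of 423 gaps between neighbours on a chromosome, of median 640 kb, 62 (14.7%) were at most 50 kb long, a limit chosen after values were seen, and 60 of the 62 were of a single type. Type 1 filled 32 of them, at 20 to 50 kb and a median of 37.5 kb. Type 4 filled 23, at 10 to 40 kb and a median of 10 kb, type 3 filled 3 and type 2 filled 2. In the remaining pair, 1 gap was of types 3 and 4 and 1 of types 1 and 2. All 16 gaps of exactly 10 kb, the smallest size, were of type 3 or 4.

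A protein-coding start lay in 14 of the 27 gaps of types 3 or 4 (51.9%, interval 31.9 to 71.3%), CpG-rich in 10. Among all segments of at most 50 kb, type 4 held a start in 24.1% and type 3 in 30.5%. A start lay in 2 of 34 gaps of types 1 or 2 outside chromosome 18 (5.88%, interval 0.720 to 19.7%), against 17.5% of all type 1 segments of that size. These were Prr27 and the olfactory receptor Olfr293, and neither was CpG-rich. A further 10 gaps of types 3 or 4 held part of a protein-coding body with no listed start, and 3 held none.

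**Figure D5:**
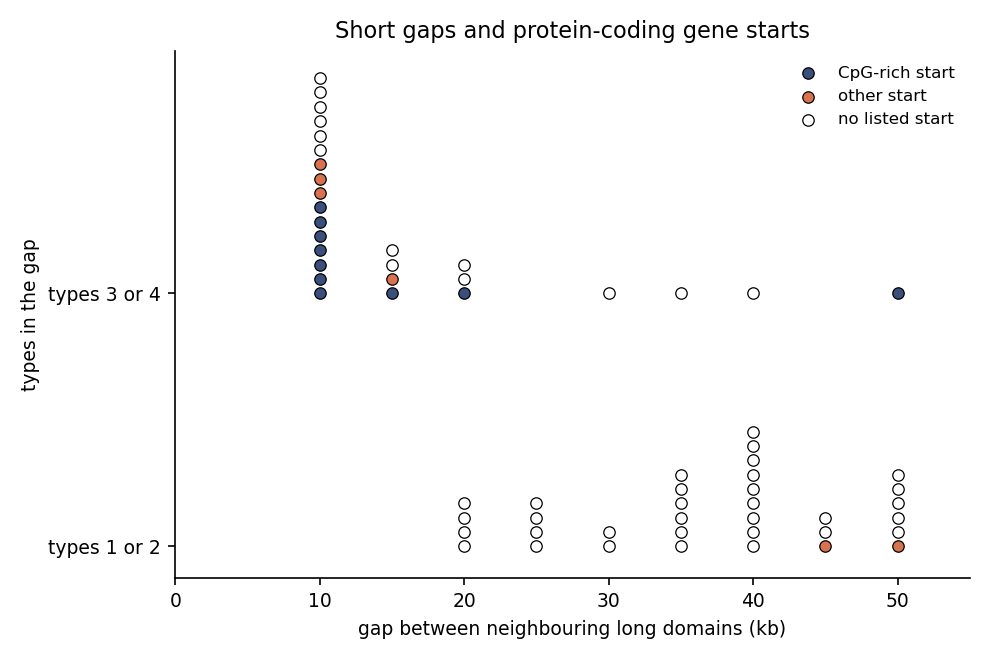
Each point is a gap of at most 50 kb between neighbouring long domains, placed by its length in kb, for gaps of types 3 or 4 and gaps of types 1 or 2, outside chromosome 18. Colour shows a CpG-rich protein-coding start, another protein-coding start or none. Of 27 gaps of types 3 or 4, 14 held a start, and of 34 gaps of types 1 or 2, 2 did.

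The genes of these gaps were named after their values were seen. They included Pcdh7, Pcdh17 and Pcdh18 of the protocadherins, the cadherin Cdh8, the synaptic organisers Slitrk3, Slitrk5, Lrrtm1, Lrfn5 and Flrt2, the latrophilin Adgrl3, the guidance receptor Robo1 and the scaffold gene Dlgap1. Astn2 and the neuropeptide gene Adcyap1 made up the rest of the 14. The gap at Pcdh17 (chr14:84440001-84450000, type 4) parted domains of 2.92 and 2.71 Mb, that at Lrfn5 (chr12:61520001-61530000, type 4) domains of 2.14 and 2.97 Mb, and that at Flrt2 (chr12:95690001-95700000, type 4) domains of 3.51 and 2.25 Mb. The 10 kb at Adgrl3 (chr5:81015001-81025000, type 3) parted domains of 1.97 and 4.96 Mb, and the 10 kb at Slitrk5 (chr14:111675001-111685000, type 4) domains of 1.74 and 2.83 Mb. The promoters of Adgrl3, Lrfn5, Slitrk5 and Pcdh17 shown near the opening come from these gaps.

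Bodies without a listed start in the gap included that of the somatostatin receptor Sstr1 and parts of Ptprd, Astn2, Csmd3, Slc8a1, Pappa, Trps1 and Samd12. The type 4 gap of 40 kb at chr13:83710001-83750000 held no protein-coding body but the microRNA gene Mir9-2, whose products act in neural progenitors. The mature sequences with the seed, bases 2 to 8, in capitals are the following, from RefSeq.
mmu-miR-9-5p: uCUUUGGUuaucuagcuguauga
mmu-miR-9-3p: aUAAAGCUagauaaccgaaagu

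Gaps of at most 50 kb linked 112 domains into 50 chains of up to 4 domains, with 125 Mb of type 5. The longest chain ran over 15.4 Mb of chromosome 16 (60750001 to 76105000) with 4 domains, gaps of 20, 50 and 20 kb, and 15.3 Mb of type 5. It carried Epha3, Htr1f, Pou1f1, Cadm2, Robo1 and Robo2, and the 50 kb gap, of types 3 and 4, held the Robo1 start. A chain of 8.28 Mb on chromosome 5 (54335001 to 62610000) had a 10 kb type 4 gap at Pcdh7, and 1 of 7.55 Mb on the same chromosome (78430001 to 85980000) a 10 kb type 3 gap at Adgrl3.

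Of 919 microRNA hairpins, 35 (3.81%) lay in long domains, spread over 23 domains. The Mir344 family gave the most, with 9 of its 13 hairpins within 195 kb of a single domain of 1650 kb on chromosome 7 (60250001 to 61900000). Its mature 3p sequences, shown because the hairpins share the domain but not the seed, fall into several seeds, again in capitals.
mmu-miR-344d-3p: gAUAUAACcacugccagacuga
mmu-miR-344e-3p: gAUAUAACcaaagccugacuau
mmu-miR-344h-3p: gGUAUAACcaaagcccgacugu
mmu-miR-344b-3p: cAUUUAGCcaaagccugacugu
mmu-miR-344c-3p: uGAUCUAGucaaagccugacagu
mmu-miR-344-3p: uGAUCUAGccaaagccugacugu
The seed AUAUAAC was shared by miR-344d-3p and miR-344e-3p, GAUCUAG by miR-344c-3p and miR-344-3p, and miR-344h-3p and miR-344b-3p each had a seed of their own. Other hairpins in long domains were Mir137, a regulator of neuronal maturation, in a 1.64 Mb domain of chromosome 3 that also held Dpyd, and Mir99a with Mirlet7c-1, of the let-7 family, in a 1.46 Mb domain of chromosome 16 (76745001 to 78200000).
mmu-miR-137-3p: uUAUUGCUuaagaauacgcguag
mmu-let-7c-5p: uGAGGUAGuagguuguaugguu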

How the data were processed

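H2Aub and H3K27me3 were profiled by CUT&RUN in 29 mouse libraries. The submitters' processing notes name the build mm10 and, in no stated role, deepTools 3.0.2, Picard 2.8.0, Trim Galore 0.4.5 and Bowtie2 2.3.4.3. The authors deposited 1 ChromHMM segmentation of H2Aub, a file whose values are type labels from 1 to 5, a category with no unit (named "other"), and no number of reads. Not given in the sources used here are the ChromHMM version, the input libraries, the bin size and a key to the types. Calling by a hidden Markov model sets borders in steps, here of 5 kb, so features shorter than that cannot appear, and 1 short call splits a domain.

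Segments were sorted, joined where touching and filtered at 300 kb. Where segments overlapped, the shorter was used for counts by bin. Genes came from RefSeq GRCm38.p6 (the build of mm10), and a gene was placed where more than 50% of its body lay. Of the genes, 328 (105 protein-coding) with positions before 3 Mb, where that table counts from scaffold starts, were left out, which left 46714 genes, 20560 of them protein-coding. The first 3 Mb of each chromosome stayed in the lengths. Intervals are Clopper-Pearson for shares and Poisson for densities, at 95%. Named are the 10 longest domains, the 5 with most genes, the 3 longest without a gene, up to 6 of the longest genes in each of the 10, the 15 longest genes inside, the 10 longest cut, and the first 6 members per list. Other names were chosen after their values were seen, and some genes that these rules take are not reported here. Domains, lists and rules were chosen with earlier results of these data known. Alternatives varied the minimum length, merging, bridging, gene placement, gene sets, neighbour length, CpG thresholds and gap limit. Counting was tested on simulated segments. Python 3.11.15, pandas 2.3.3, numpy 2.4.6, scipy 1.17.1 and matplotlib 3.10.9 were used.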

Additional observations from a re-analysis of the deposited data

How the results depend on the processing

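Of 48 alternatives over 10 results, 26 moved the value beyond the bounds set for it and 22 did not. Those bounds are wide for a count (1.5 times) and for gene length (the 95% interval of the median), so the 22 include 663 domains at a minimum of 200 kb and a median gene length of 2.25 kb at 500 kb. Other minimum lengths gave 251 domains at 500 kb and 92 at 1 Mb. The total length was 428.8 Mb at 200 kb, 301.6 Mb at 500 kb and 190.0 Mb at 1 Mb, and 386.0 Mb with gaps of up to 10 kb bridged. The share of type 5 length was 72.6%, 51.1%, 32.2% and 65.2% in the same order. Genes per Mb were 2.13 with whole bodies only, 7.88 over all annotated genes, 2.17 at 500 kb and 1.30 without receptors. Domains without a gene were 62.4% with whole bodies only, 6.33% over all annotated genes and 44.6% at 500 kb. Median gene length was 2.00 kb with whole bodies only, 1.16 kb over all annotated genes and 22.2 kb without receptors. Borders on type 4 were 15.2% with neighbours of up to 10 kb skipped and 32.6% at 1 Mb. CpG-rich promoters were 6.28% at a ratio of 0.75 and GC of 55%, against 34.03% of all genes, 9.34% with whole bodies only and 21.9% without receptors. With gaps of up to 20 kb, an alternative added after the data were seen, 0 of 4 gaps of types 1 or 2 (0%) held a start. Why the values moved was not tested.

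No paired analysis was possible because the segmentation holds no value per library. No replicate was left out for the same reason, and the read depth behind each border is unknown. Type borders lie on a 5 kb grid, long genes can lie inside only long domains, and genes of a cluster share a domain, so intervals are too narrow for shares over clustered genes. GC and repeat content of the domains were not analysed here, and neither were sex chromosomes.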

Other observations

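Annotated features other than protein-coding genes differed in their share in long type 5 domains, which made up 15.2% of the segmented bins. Features of 1 cluster were counted separately, and how many domains held the V segments was not worked out. A 740 kb domain of chromosome 12 (113795001 to 114535000) alone held 63 annotated genes, none of them protein-coding. Of 8798 pseudogenes 1093 (12.4%) lay mostly in long domains, as did 125 of 924 snRNA genes (13.5%), 119 of 1276 snoRNA genes (9.33%) and 40 of 374 V segments of immune receptor loci (10.7%), against 877 of 20560 protein-coding genes (4.27%). Of lncRNA genes 610 of 12324 (4.95%) did, close to the protein-coding share, while miRNA genes of the gene table (38 of 1136, 3.35%) and tRNA genes (4 of 386, 1.04%) had smaller shares.

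CpG-rich starts inside the domains stood at 0.425 and 0.472 per Mb in the first and the next 25 kb inside, and at 0.142 to 0.236 per Mb from 50 to 150 kb inside, on 3 to 10 starts per window with overlapping intervals. Of 81 such starts in 75 genes, 9 (11.1%) lay within 25 kb of a border, and the median distance to the nearest border was 191 kb. Other starts outside the receptor families had 27 of 344 (7.85%) within 25 kb and a median of 159 kb.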
